A study of Mus musculus with 11 samples.

Results

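The wild-type embryonic day 17 mouse kidney was described here from 4 arrays, chosen as the samples whose source label reads wild-type kidneys, out of 11 in the series. The other 7 arrays came from Robo2 homozygous kidneys of the same embryonic day, 3 of them with the letters NB in their titles, and no genotype comparison was made. The titles place 1 wild-type array, replicate 1, in a series named R2E17 and the other 3, replicates 2 to 4, in a series named E17R2. The sources used here do not give strain, treatment or pooling of embryos. The labels do not say whether the 4 samples came from separate animals, and sex-linked genes, given below, set replicate 4 apart from the other 3. Free-text fields of the same samples speak of human brain, whereas the organism, source and tissue fields give mouse kidney, and the latter were followed.

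At this stage the mouse kidney builds new nephrons at its outer rim while older nephrons deeper in the organ already filter and transport. Nephron progenitors around the branching tips of the ureteric bud condense into vesicles, which lengthen into S-shaped bodies and then form podocytes, proximal tubule, loop of Henle and distal tubule. The ureteric tree becomes the collecting duct, and stroma, vessels and blood fill the space between. A whole kidney therefore contains the youngest and the most mature cells of each lineage together.

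Each gene is given by its within-array percentile, the share of the 18193 named genes with a signal at or below its own, on a scale where 100 is the brightest gene. A percentile does not depend on the scale of an array, which matters because the R2E17 and E17R2 arrays had been normalized apart, with median intensities of 53.2 for replicate 1 and of 23.4 to 24.5 for replicates 2 to 4. The signal of a probe set depends on the affinity of its probes as well as on the amount of transcript and is not scaled by length. The order of genes given here is an order of signal, not of molecules per cell. In these bulk samples more cells of a type and more RNA per cell cannot be told apart.

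The 6 markers that stand for the kidney compartments were all above the level of olfactory receptor genes, which served as a low reference. The reference was set at the 95th percentile of 38 olfactory receptor genes and fell at within-array percentiles of 23.3 to 29.1. Of all genes, 69.3% were above it on all 4 arrays. Plvap, the protein of endothelial fenestral diaphragms, was at percentiles 95.6, 91.0, 90.9 and 89.2 in replicates 1 to 4 (91.7 ± 2.73, SD, n = 4). Six2, the transcription factor that keeps nephron progenitors undifferentiated, was at 89.5, 90.9, 90.5 and 91.7 (90.6 ± 0.902, SD, n = 4). Both lay near the top of every array.

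Umod, which encodes the uromodulin of the thick ascending limb, was at 97.9, 74.9, 80.3 and 80.7, so replicate 1 stood above the other three. A second, dimmer Umod probe set, ranked among all probe sets, gave 89.1 in replicate 1 and 56.2 to 60.7 in the others. Foxd1, the transcription factor of the cortical stroma, was at 75.5, 81.0, 79.4 and 73.2. Ret, the receptor tyrosine kinase of the ureteric bud tip, was at 65.7, 71.9, 67.6 and 61.3. Nphs1, which encodes the slit diaphragm protein nephrin, was the dimmest of the 6 with 53.0, 49.96, 50.8 and 57.5. For these last 3 genes the means of 77.3, 66.6 and 52.8 had SDs of 3.54, 4.37 and 3.38 (n = 4), with replicate 4 lowest for Foxd1 and Ret and highest for Nphs1. Markers of all 6 compartments were thus above the reference on every array, a level that 69.3% of all genes also passed on all 4 arrays. Passing it therefore says little about the markers in particular. The brain list had a median percentile of 12.1 ± 0.885 (SD, n = 4), close to the 11.3 ± 0.677 of the olfactory receptor genes.

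A level above the olfactory reference was reached by 13952 genes in replicate 1 and by 12905 to 13225 genes in replicates 2 to 4. On all 4 arrays 12606 genes (69.3%) were above it, and 3976 genes were above it on none. Robo2, the gene altered in the other arrays of the series, was among the latter, with percentiles of 17.6, 16.6, 24.4 and 15.1 from its 1 probe set. This is a description of signal and not a test of detection.

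The brightest signals belonged to protein synthesis. Rps29, a protein of the small ribosomal subunit, was ranked 1, 2, 1 and 1 on the 4 arrays. Tmsb10, which encodes the actin-binding thymosin beta 10, was ranked 2, 1, 2 and 6. Next in the mean percentile came the ribosomal protein gene Rpl41, the growth-related Tpt1, Rpl37a and the elongation factor gene Eef1a1. Of the 25 genes with the highest mean percentile, 17 were cytosolic ribosomal protein genes. The other members were Tmsb10, Tpt1, Eef1a1, the respiratory chain genes Cox6a1 and Uqcrb, beta actin (Actb), the poly(A)-binding protein gene Pabpc1 and Col3a1, a fibrillar collagen of stroma.

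The top of the order was nearly the same on every array. Of these 25 genes, 19 were among the 25 brightest on all 4 arrays, and the lowest rank any of them had on an array was 36. Over the 48 cytosolic ribosomal protein genes the median percentile was 99.8 on each array, and over 83 subunits of oxidative phosphorylation it was 97.5 to 97.9. Col3a1 was ranked 15 in replicate 1 and stood at a mean percentile of 99.9, as the first member of a kidney list in this order.

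Ribosomal protein transcripts are known to start within a run of pyrimidines, and the start regions of the brightest genes were read from RefSeq promoter sequences of mouse build GRCm38.p6. A run of at least 8 C or T bases on the coding strand, lying within the 20 bases on either side of the start, was present in 19 of 42 ribosomal protein genes that have a sequence in the table, against 15.8% of all 14452 genes with one. It was present in 6 of 20 such genes among the 25 brightest. The rule also counts runs that do not span the start, such as that of Rpl13a, which begins after it. Examples of runs that span the start are shown from 40 bases before to 20 bases after it, with the run in capitals. Rplp2 lies at chr7:141447611-141447670 (plus strand), Rpl38 at chr11:114668540-114668599 (plus), Rpl7a at chr2:26910767-26910826 (plus) and Rps10 at chr17:27635225-27635284 (minus).
Rplp2: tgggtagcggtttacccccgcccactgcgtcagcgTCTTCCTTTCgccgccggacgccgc
Rpl38: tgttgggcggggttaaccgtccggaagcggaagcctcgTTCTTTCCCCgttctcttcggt
Rpl7a: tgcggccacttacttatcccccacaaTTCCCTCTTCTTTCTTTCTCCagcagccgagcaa
Rps10: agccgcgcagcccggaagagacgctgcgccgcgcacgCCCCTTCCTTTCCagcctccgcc
The run was about as frequent in dim as in bright genes, at 15.1% in the dimmest decile of genes and 16.5% in the brightest.

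Across all genes the promoters differed in composition with the signal level. The observed over expected ratio of CG dinucleotides had a median of 0.245 in the dimmest decile, 0.704 in the fifth decile and 0.824 in the brightest decile. A TATAAA match on the coding strand, between 40 and 15 bases before the start, was present in 6.78% of promoters in the dimmest decile, in 0.900% of the ninth decile and in 1.45% of the brightest. The share over all promoters was 2.54%. A match is a description of letters, and genes missing from the table were not counted.

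The kidney lists were ordered by the median percentile of their members. The stroma list was highest on each of the 4 arrays, with medians of 91.9, 92.7, 92.6 and 91.9 (92.3 ± 0.459, SD, n = 4). It was followed by pericytes and renin cells at 81.8 ± 1.84 and by the renal vesicle to S-shaped body at 81.2 ± 1.03, which did not differ beyond their spread. The renin gene Ren1 was not measured, so the 8 measured genes of the former list give no direct reading of renin cells. Both places depended on the probe sets. Without probe sets of possible cross-hybridisation the pericyte list was at 73.2, and with the median of a gene's probe sets the vesicle list was at 72.3. Endothelium at 75.4 ± 2.56, ureteric trunk and principal cells at 73.2 ± 4.87, podocytes at 71.6 ± 4.71 and proximal tubule at 70.2 ± 9.40 were neighbours whose arrays overlapped. Below them lay the distal convoluted and connecting tubule at 65.7 ± 8.67, the ureteric bud tip at 61.6 ± 1.90, nephron progenitors at 61.1 ± 2.16 and the loop of Henle at 54.9 ± 3.71. The arrays of each neighbouring pair among these overlapped. Intercalated cells were lowest on every array, at 42.6 ± 1.87, although with the median of a gene's probe sets in place of the brightest the bud tip was lowest, at 52.9. All of these are SDs over 4 arrays. A median depends on which genes a list holds, and with 4 arrays of 1 condition no test of the order was made.

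**Figure D1:**
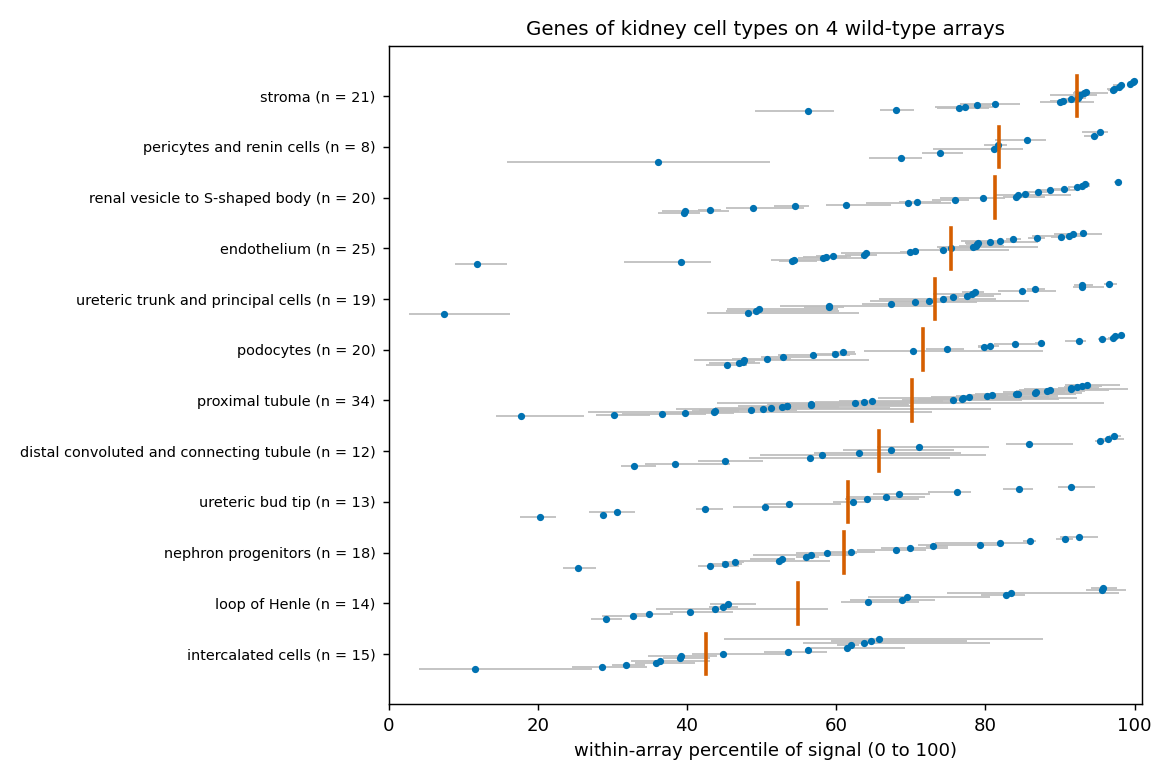
Within-array percentile of signal (horizontal axis, 0 to 100) for every measured member of 12 kidney lists. Blue points are means over 4 wild-type arrays, grey lines run from the lowest to the highest array, and orange bars are the list values, from 42.6 for intercalated cells to 92.3 for stroma.

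Each list spanned much of the scale, so its members are given in turn. In the nephron progenitor list, 18 measured genes ran from 25.3 to 92.5. Itga8, the integrin subunit through which the mesenchyme meets the ureteric bud, led at 92.5 ± 2.04 (SD, n = 4), before Six2. Cited1, a transcriptional co-regulator of the youngest progenitors, was at 73.2 in replicate 1 and at 84.1, 84.4 and 86.0 in the others. Crym, a thyroid hormone-binding protein, had the same shape with 70.9 against 82.1, 81.8 and 82.0. Gdnf, the ligand of Ret, was at 73.0 ± 1.37. The transcription factor genes Eya1 (68.0 ± 4.22), Sall1 (58.8 ± 3.51) and Osr1 (56.6 ± 5.62) lay in the middle, and Fgf20, a growth factor of progenitors, was the dimmest at 25.3 ± 1.98. Cited1 and Crym were the members of this list whose replicate 1 stood farthest below the other arrays.

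Early epithelial genes had a list median of 81.2. In the list from renal vesicle to S-shaped body, all 20 measured genes were above the olfactory reference on the 4 arrays. The same held for 69.3% of all genes and for every measured gene of the podocyte and stroma lists. The cell cycle regulator Ccnd1 was at 97.7 ± 0.369, the Notch ligand gene Jag1 at 93.4 ± 0.541 and the receptor gene Notch2 at 93.0 ± 0.868 (SD, n = 4). Wnt4, the signal that turns mesenchyme into epithelium, was at 90.5 ± 0.946 and Lhx1, a transcription factor of the same stage, at 88.7 ± 2.31. Fgf8, which progenitors need to survive as they form vesicles, was at 39.6 ± 2.39, below Wnt4 on every array. The range over the 4 arrays was over 20 points in 0 of these 20 genes and in 2.06% of all genes, so this count is near that of the whole.

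Podocyte genes ran from Actn4, at percentile 98.1, down to the transcription factor gene Lmx1b, at 45.4. Actn4, which crosslinks actin in foot processes, was at 98.1 ± 0.313, and the transcription factor genes Tcf21 and Wt1 were at 97.4 ± 0.272 and 87.5 ± 0.628 (SD, n = 4). Podxl, the sialomucin of the podocyte surface, was at 95.7 ± 0.800. Actn4, Tcf21 and Wt1 are also active outside podocytes in the embryonic kidney. Of the genes closer to the mature foot process, Ptpro was at 79.8 ± 0.558, Synpo at 74.8 ± 2.14, Plce1 at 60.9 ± 1.26 and Nphs1, as above, at 52.8. Col4a4 and Col4a3, collagen chains of the mature glomerular basement membrane, stood apart between arrays. Col4a4 was at 87.8 in replicate 1 and at 63.8, 65.6 and 63.9 in the others, and Col4a3 at 64.3 against 40.9, 44.0 and 41.6.

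Proximal tubule genes had the widest spread between arrays of the 12 kidney lists. Their medians were 84.0 in replicate 1 and 62.95, 66.0 and 67.9 in replicates 2 to 4. Fbp1, a gluconeogenic enzyme, led at 93.6 ± 3.26 (SD, n = 4), followed by the peptidase gene Dpp4 at 93.0 ± 1.92 and the transcription factor gene Hnf4a at 92.3 ± 1.85. The endocytic receptor genes Lrp2 and Cubn, which retrieve filtered protein, were at 91.5 ± 2.59 and 86.7 ± 4.18. The phosphate transporter gene Slc34a1 was at 84.3 ± 5.37 and the water channel gene Aqp1 at 84.1 ± 5.44. The glucose transporter genes Slc5a1 and Slc5a2 were at 56.7 ± 8.80 and 53.3 ± 1.85, and the amino acid transporter gene Slc6a19 at 30.2 ± 3.31. Ass1, an enzyme of arginine synthesis, was the dimmest member at 17.8 ± 5.68.

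Among the 14 genes of the loop of Henle, 2 were above percentile 90 on every array. By definition the brightest decile of all genes lies above that level on an array, so this count is near that of the whole. Sostdc1, a secreted antagonist of BMP and Wnt signals, was at 95.8 ± 1.42, and Slc12a1, the furosemide-sensitive cotransporter, at 95.6 ± 2.28 (SD, n = 4). The potassium channel gene Kcnj1 was at 80.5 in replicate 1 and at 64.3 to 67.8 in the others. Egf, which the adult distal tubule makes in large amounts, was at 40.4 ± 3.87, and the claudin genes Cldn14 and Cldn19 were at 32.7 ± 2.82 and 29.1 ± 1.70. In the distal convoluted and connecting tubule list the calcium-binding protein genes Calb1 (97.2 ± 0.629) and S100g (96.4 ± 1.43) led. Slc12a3, the thiazide-sensitive cotransporter, was at 80.0 in replicate 1 against 49.8, 51.1 and 51.5. Klk1, a kallikrein of the connecting tubule, was at 75.3 against 48.2, 52.7 and 49.8.

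Along the ureteric tree, the list of the trunk and principal cells had the higher median than the list of the tip on all 4 arrays. At the tip the signalling inhibitor Spry1 was at 91.4 ± 2.31 and the GDNF co-receptor Gfra1 at 84.5 ± 1.78, while Wnt11, a target of Ret signalling, was at 68.4 ± 3.32 (SD, n = 4). The Ret-dependent factors Etv5 and Etv4 were at 64.2 ± 4.69 and 62.3 ± 1.97, near Ret itself. In the trunk and principal cells the keratin genes Krt8 and Krt18 were at 96.6 ± 0.832 and 93.0 ± 1.13, and the water channel genes Aqp3 and Aqp2 at 75.7 ± 1.09 and 72.4 ± 9.37. Aqp2, the vasopressin-controlled channel, was at 85.8 in replicate 1 and at 64.5, 68.1 and 71.1 in the others. Scnn1a and Scnn1b, subunits of the epithelial sodium channel, were at 60.4 and 73.2 in replicate 1 against at most 46.2 and 56.2. Hoxb7, a homeobox gene of the ureteric lineage, was read by 1 probe set at 7.38 ± 6.11, below the olfactory reference on all 4 arrays.

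Intercalated cells, which secrete acid or base in the collecting duct, had no member above percentile 90. Only the brightest decile of all genes passes that level on an array, so in a list of 15 genes this is near the whole. Rhcg, an ammonia transporter, was at 64.7 ± 8.64 and Foxi1, the transcription factor of these cells, at 53.5 ± 3.84 (SD, n = 4). The proton pump subunit genes Atp6v1b1 and Atp6v0d2 were at 62.0 ± 1.33 and 61.4 ± 5.44, and the anion exchanger Slc26a4 was at 39.3 ± 3.78. Slc4a1, the anion exchanger shared with red cells, was the brightest at 44.9, 62.1, 68.2 and 87.8, an array order that the erythroid list also had. Its range of over 20 points was the only one among intercalated genes within the E17R2 arrays.

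Stroma was led by extracellular matrix. Col3a1 was at 99.9 and Col1a2 at 99.8, with the galectin gene Lgals1 at 99.4 ± 0.0883, the proteoglycan gene Dcn at 98.1 ± 0.707 and the enkephalin precursor gene Penk at 97.8 ± 0.419 (SD, n = 4). The retinoic acid-making enzyme Aldh1a2 was at 91.5 ± 1.04 and its receptor gene Rarb at 68.1 ± 1.91. Tbx18, a transcription factor of the stroma around the ureter, was the dimmest member at 56.2 ± 4.85. Of 21 stroma genes, 12 were above percentile 90 on all 4 arrays, a level that only the brightest decile of all genes passes on an array. A range over 20 points was found in 0 of the 21, against 2.06% of all genes. Their median range was 2.49 points, and that of all genes was 1.51 in the brightest decile and 4.14 in the ninth.

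In vessels, the endothelial genes Ramp2 (93.1 ± 0.273), Plvap, Emcn (91.2 ± 3.29) and Cldn5 (90.2 ± 0.962) led (SD, n = 4). The vascular endothelial growth factor receptor genes Kdr and Flt1 were at 83.8 ± 1.09 and 63.8 ± 1.97. Cdh5, the junctional cadherin, was at 75.4 ± 2.51 and Pecam1 at 54.1 ± 2.24. Vwf, which larger vessels make, was at 39.2 ± 5.21, and Gja5, a connexin of arteries, was below the olfactory reference on all 4 arrays at 11.9 ± 2.95. Around the vessels, the pericyte genes Pdgfrb and Rgs5 were at 95.3 ± 1.57 and 94.6 ± 0.892. Macrophage genes had a list median of 58.6 ± 2.08, led by the growth factor receptor gene Csf1r at 89.7 ± 2.15, and lymphocyte genes one of 27.4 ± 0.509.

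The imprinted and fetal growth, cell cycle and housekeeping lists had medians above percentile 90. The imprinted and fetal growth list had a median of 93.0 ± 3.11, with the fetal growth factor gene Igf2 at 99.7 ± 0.151, and the cell cycle list one of 92.3 ± 3.20, with the replication clamp gene Pcna at 99.4 ± 0.369 (SD, n = 4). The imprinted and fetal growth genes reached down to a mean percentile of 0.215, and with the median of a gene's probe sets the list's median was 73.2. Housekeeping genes were at 98.3 ± 0.338, from Eef1a1 down to the general transcription factor gene Tbp at 54.8 ± 0.545. Hypoxia response genes were at 73.8 ± 1.47 and immediate early genes at 59.5 ± 2.95. Among adjacent tissues, smooth muscle had a median of 60.6 ± 2.61 with Acta2 at 99.2 ± 0.171, urothelium 37.9 ± 3.02, Schwann cells and glia 42.9 ± 4.87 and gonad 21.6 ± 6.43. The fat list was at 13.8 ± 2.02, although its member Fabp4, which endothelium also makes, was at 99.1 ± 0.225.

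**Figure D2:**
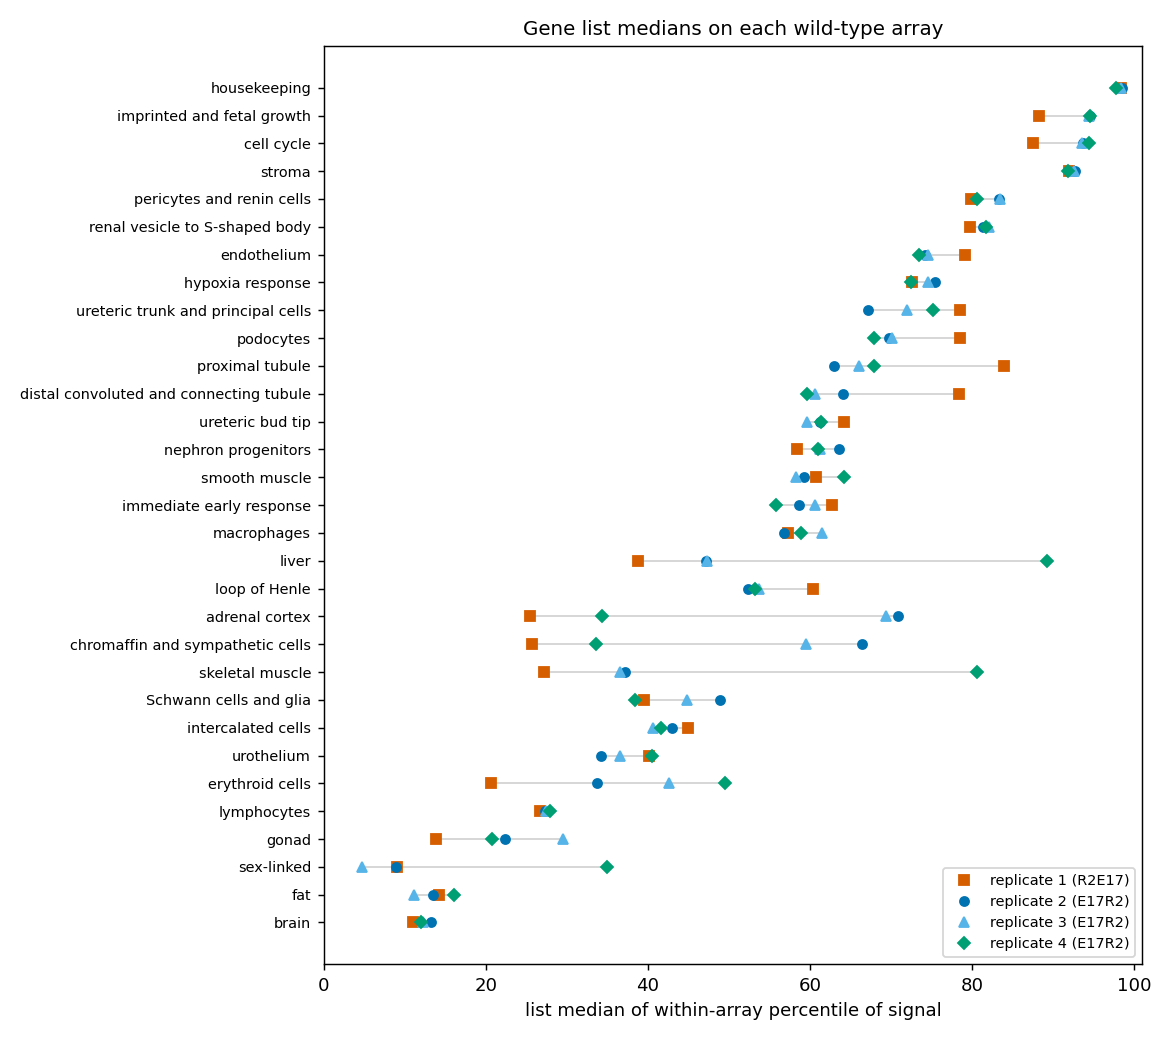
Median within-array percentile of 31 gene lists (horizontal axis) on each wild-type array, with 1 symbol for each replicate and a grey line over their range. Stroma has all arrays between 91.9 and 92.7, whereas the adrenal cortex list runs from 25.4 to 70.8 and the liver list from 38.8 to 89.3.

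The 4 arrays had closely similar gene orders, and the remaining differences set apart replicate 1, replicate 4 and the pair of replicates 2 and 3. Replicate 1 is the only wild-type array with an R2E17 title. Among the wild-type arrays its title series and the single array therefore cannot be told apart. Spearman correlations over genes, which are not independent replicates, were 0.973 to 0.977 between replicate 1 and the others and 0.988 between replicate 4 and replicates 2 and 3. Replicates 2 and 3 were the most alike, at 0.997, and this was the highest of the 15 pairs among the 6 E17R2 arrays, where the next pair had 0.994. The SD of their log2 differences was 0.21, against 0.29 for the next pair. They shared 112 identical values of 45101 probe sets and so were not copies of each other. The ratio of 3' to 5' signal, a measure of RNA integrity or labelling, was 0.70 on the log2 scale for Gapdh in replicate 1 and -0.01 to 0.15 in the others, and for Actb 1.12 against 0.36 to 0.58.

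The percentile range of a gene, its highest minus its lowest array, had a median of 5.01 points over 4 arrays and 2.54 over the 3 E17R2 arrays. It was over 20 points for 374 genes (2.06% of those examined), and over the 3 E17R2 arrays for 156 genes (0.857%). Without replicate 4 it was over 20 points for 213 genes. The range varied with the level. In the brightest decile of genes the median was 1.51 points and 0 genes passed 20 points, while the fifth decile held 67 such genes.

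**Figure D3:**
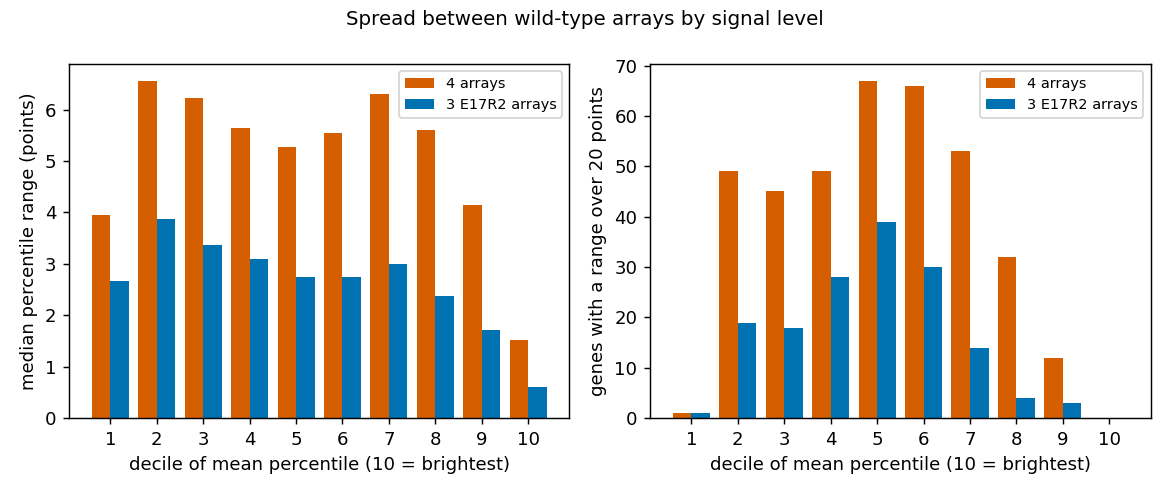
Left, median percentile range of genes in points by decile of mean percentile (10 is the brightest), for 4 arrays (orange) and for the 3 E17R2 arrays (blue). Right, number of genes with a range over 20 points, with 67 in the fifth decile and 0 in the brightest for 4 arrays.

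Of the 374 genes, 367 were above the olfactory reference on at least 1 array, and these were grouped by the arrays above their widest gap, a grouping chosen after the values were seen. The ranges chose these genes, so the values that follow describe them and test nothing. In 122 genes replicate 1 alone was high, in 105 replicate 4 alone, in 57 replicates 2 and 3, and in 54 all but replicate 1. The remaining 29 genes were spread over 7 other arrangements. Few genes set replicates 2 and 3 apart from each other: replicate 3 alone was high for 9 genes and replicate 2 alone for 3.

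Replicates 2 and 3 carried signal of genes known from the adrenal gland, which lies on the kidney. Cyp11b1, which makes corticosterone in the adrenal cortex, was at 5.53 in replicate 1, 93.9 and 91.1 in replicates 2 and 3 and 26.7 in replicate 4. Hsd3b1, another steroid-making enzyme, was at 25.4, 97.1, 96.2 and 41.0, and Cyp11a1, the first enzyme of steroid synthesis, at 17.1, 74.96, 70.1 and 18.5. The adrenal cortex list of 13 measured genes had medians of 25.4, 70.8, 69.4 and 34.3. Replicates 2 and 3 were thus far above replicates 1 and 4, which did not overlap them.

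The same pair was high for chromaffin and sympathetic genes. Chgb, a granin of secretory granules, was at 25.7, 91.0, 88.9 and 23.7, and Th, the first enzyme of catecholamine synthesis, at 19.2, 66.4, 67.2 and 32.7. The list of 13 genes had medians of 25.7, 66.4, 59.5 and 33.6. The neurofilament gene Nefl, at 23.4, 86.9, 75.4 and 35.4, and the secretogranin gene Scg2, at 9.83, 62.5, 60.9 and 12.8, were high on the same arrays. The brain list of 13 genes had medians of 11.1, 13.2, 12.3 and 12.02, and 2 of its genes, Syt1 and Snap25, had a range over 20 points. Rgs4 of the pericyte list had the same arrangement, at 30.3, 51.2, 47.1 and 15.8, and the part of adrenal or nerve tissue in its signal was not tested. Of the 57 genes of this group, 9 were in the chromaffin and sympathetic list and 7 in the adrenal cortex list. Each list held 13 of the 18193 genes. The lists were chosen with earlier results of these data known, so these counts are a description only. Cyp17a1 and Cyp11b2, a further pair of steroid-making genes, were below the olfactory reference on all 4 arrays. The genes whose percentiles, centred within each normalized set, followed Hsd3b1 most closely over the 11 arrays of the series were Star (r = 0.980), Nr5a1 (0.979), Cyp11a1 (0.976), Akr1cl (0.969), Scarb1 (0.947), Ern1 (0.930), Cyp11b1 (0.911), S100a9 (0.900), Stfa2l1 (0.894) and Mc2r (0.893). Ern1, a sensor of unfolded proteins, had a range of 1.22 points over the 3 E17R2 wild-type arrays, and S100a9 is known from neutrophils. These correlations were computed over arrays that partly chose the genes. They also cover the homozygous arrays, where Hsd3b1 was at 98.5 on an NB-titled array, at 86.3 on an E17R2 array and at 18.5 to 34.6 on the rest.

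Replicate 4 carried skeletal muscle and liver genes. Ttn, the giant spring protein of the sarcomere, was at 16.0, 39.03, 36.2 and 86.6, and Myh3, the embryonic myosin heavy chain, at 27.5, 50.5, 44.2 and 93.4. The skeletal muscle list had medians of 27.2, 37.1, 36.5 and 80.7, and 13 of its 14 genes had a range over 20 points, against 2.06% of all genes. Of the liver genes, Apoa2, an apolipoprotein of high density lipoprotein, was at 38.1, 50.7, 52.6 and 96.4, and albumin (Alb) at 79.4, 89.6, 88.3 and 99.8. The liver list had medians of 38.8, 47.1, 47.3 and 89.3. Casq2, a calcium-binding protein of striated muscle, was the smooth muscle list's only member in this group, at 38.8, 37.5, 39.4 and 71.4, while the smooth muscle list had medians of 60.8, 59.2, 58.3 and 64.2. The part of muscle, liver or adrenal tissue in the percentiles of kidney genes on these arrays was not tested.

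**Figure D4:**
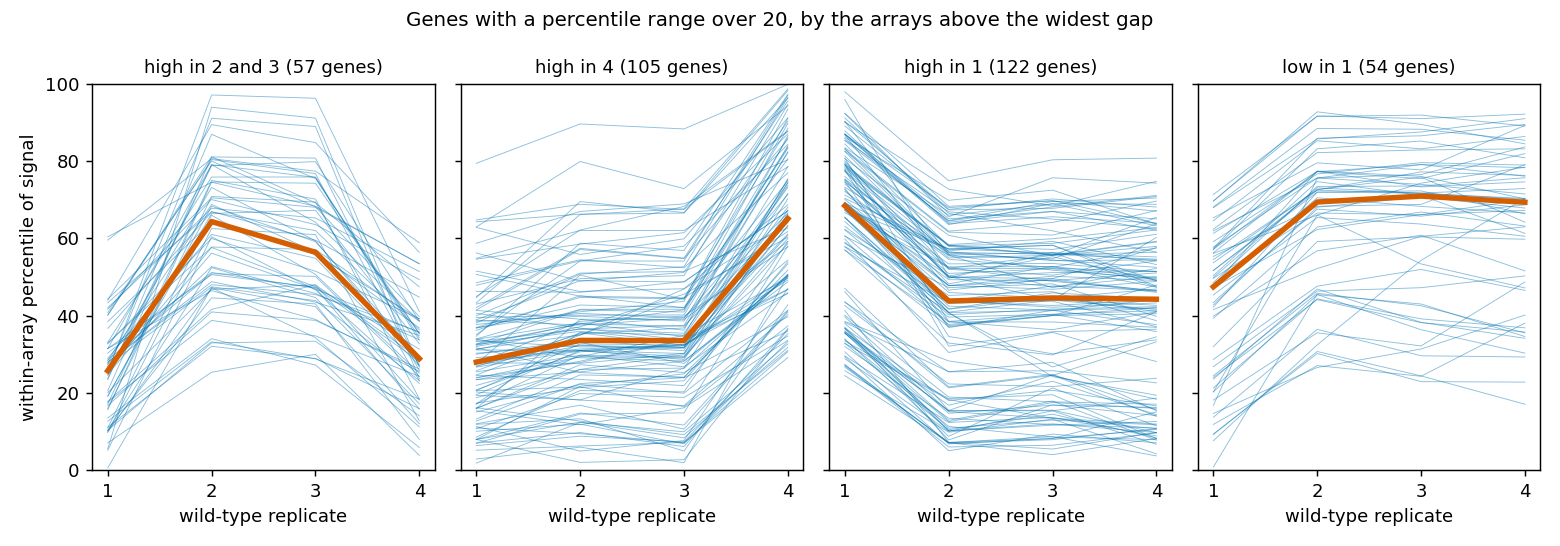
Within-array percentile of signal (vertical axis) on wild-type replicates 1 to 4 for the 4 commonest arrangements of genes with a range over 20 points. Thin lines are single genes and the thick line is the median, with 57 genes high in replicates 2 and 3, 105 in replicate 4, 122 in replicate 1 and 54 low in replicate 1.

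Sex-linked genes separated replicate 4 too. Xist, the RNA that coats and silences 1 X chromosome of females, was at 99.01, 99.3 and 99.4 in replicates 1 to 3 and at 33.6 in replicate 4. The Y-linked gene Kdm5d was at 2.90, 5.97, 1.95 and 50.5, and Eif2s3y at 7.95, 2.03, 2.74 and 36.4. Sex and the other contents of replicate 4 cannot be told apart with 1 such array.

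Red cell genes differed between the arrays. The erythroid list of 14 measured genes had medians of 20.7, 33.7, 42.7 and 49.5 in replicates 1 to 4. Hemgn, a nuclear factor of erythroid precursors, was at 7.63, 32.4, 54.3 and 70.3, and Alas2, the erythroid enzyme of haem synthesis, at 58.7, 66.9, 68.9 and 80.3. Hbb-y, an embryonic beta-like globin gene, was at 16.8 in replicate 1 and at 75.6, 73.9 and 71.5 in the others, read by a probe set whose suffix marks possible cross-hybridisation. Haemoglobin alpha (Hba-a1) was read at 10.3 to 18.5, below the olfactory reference on all 4 arrays. Probe sets with several gene symbols, 932 in all, were left out, and the globin genes Hbb-b1 and Hbb-bt were not measured. The level of haemoglobin transcripts is therefore not given by these values.

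Replicate 1, which alone among the wild-type arrays bears an R2E17 title, had its highest offset in Ranbp3l, at 44.9 points above the mean of the E17R2 arrays, and the 10 highest included Kap, Pck1 and Cyp27b1 of the proximal tubule list. Kap, the kidney androgen-regulated protein gene of the proximal tubule, was at 95.9 in replicate 1 and at 50.1, 44.0 and 60.2 in replicates 2 to 4. G6pc, the last enzyme of glucose production, was at 79.2 against 32.1, 35.8 and 36.5, and Pck1, an earlier enzyme of the same pathway, at 80.7 against 38.5, 40.3 and 41.3. The vitamin D enzymes Cyp27b1, which activates the hormone, and Cyp24a1, which degrades it, were at 72.9 and 90.2 against at most 40.6 and 55.8. The other genes with the 10 highest offsets were Ranbp3l itself, the proton pump gene Atp12a, the protease gene Plau, the steroid-binding Serpina6 and the kinase gene Pdk4, with offsets of 31.7 to 44.9 points, and the next gene below had an offset of 31.1.

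Offsets against the 3 E17R2 arrays were counted for whole lists. Of all genes, 38.2% were higher in replicate 1 than in each E17R2 wild-type array and 38.0% were lower than in each. Of 34 proximal tubule genes 33 were higher and 1, Slc5a2, was lower, with a median offset of 10.3 points, and all 12 distal convoluted and connecting tubule genes were higher, with a median of 8.88. Of the 14 loop of Henle genes 12 were higher (4.36 points) and in the intercalated list 12 of 15 (6.96). Higher genes also outnumbered lower ones outside these segments. There were 13 higher and 4 lower of 19 trunk and principal cell genes, and 8 and 1 of 13 bud tip genes. Endothelium had 15 and 6 of 25 genes, and podocytes 11 and 4 of 20. Counts nearer to the whole were found for nephron progenitors, with 4 higher and 7 lower of 18, and for stroma, with 8 and 9 of 21. Of 17 cell cycle genes 15 were lower and 0 higher, with a median offset of -2.27 points, of 14 erythroid genes 12 were lower, and of 18 imprinted and fetal growth genes 12 were lower. The median offset of all genes was -0.0183. Members of a list share cells, so these counts are not counts of independent events.

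**Figure D5:**
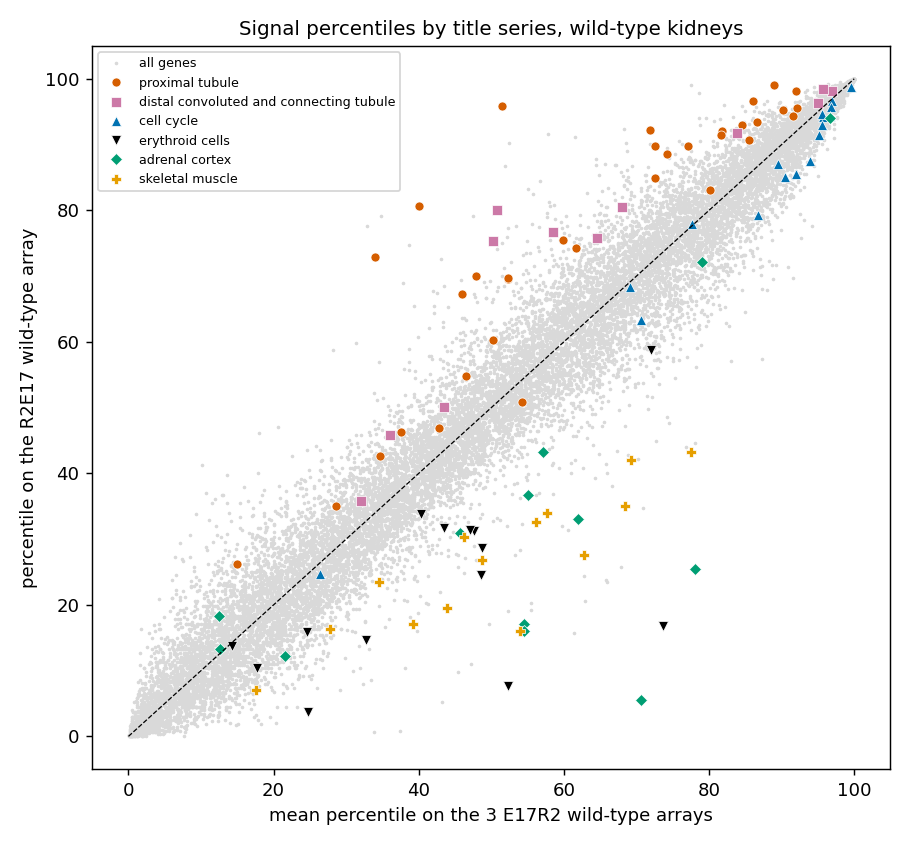
Percentile of each gene on the R2E17 wild-type array (vertical axis) against its mean over the 3 E17R2 wild-type arrays (horizontal axis), with the line of equality dashed and 6 gene lists in colour. Of the proximal tubule genes 33 of 34 lie above the value of each E17R2 array, and of the cell cycle genes 15 of 17 and of the erythroid genes 12 of 14 lie below each.

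Kap and G6pc were also high on the homozygous arrays of the same normalized set as replicate 1. Kap was at 97.5 on the R2E17 homozygous array and at 98.4, 98.6 and 98.6 on the NB-titled arrays, against 48.2 to 60.6 on the 3 homozygous E17R2 arrays. G6pc had the same arrangement, with 77.6 on the R2E17 homozygous array, 76.4, 89.8 and 80.5 on the NB-titled arrays and at most 31.7 on the homozygous E17R2 arrays. Not all of the 10 highest offsets repeated in this way. Pdk4 was at 47.7 on the R2E17 homozygous array and at 44.1, 76.2 and 80.4 on the NB-titled arrays. Atp12a and Ranbp3l were at 45.9 and 57.7 on the R2E17 homozygous array, against 74.8 and 77.7 in replicate 1. On the NB-titled arrays they reached 78.1 and 79.6. Of these 10 genes, all but Pdk4 were higher on each of these 4 homozygous arrays than on every E17R2 array. The embryonic globin Hbb-y was low on the same set, at 29.4 on the R2E17 homozygous array and at 7.43, 7.34 and 16.9 on the NB-titled arrays, against 71.2 to 73.3 on the homozygous E17R2 arrays. The Gapdh 3' minus 5' log2 value of these 4 homozygous arrays was 0.03 to 0.22, against 0.70 in replicate 1. For the E17R2 arrays, title series and normalized set cannot be told apart.

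Leaving out replicate 1 moved the medians of the proximal and distal tubule lists more than those of the other kidney lists. Over the 3 E17R2 arrays the medians were 65.6 ± 2.499 for proximal tubule, 61.4 ± 2.33 for the distal convoluted and connecting tubule, 69.3 ± 1.14 for podocytes and 53.1 ± 0.738 for the loop of Henle (SD, n = 3). Stroma stayed at 92.4 ± 0.475 and nephron progenitors at 62.0 ± 1.47.

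A TATAAA match stood in the promoters of variable genes in 17 of the 280 with a sequence (6.07%, against 2.54% of all promoters). The share was 6.78% in the dimmest decile, 4.64% in the second and 1.66% in the fifth. Those deciles of all genes held 1, 49 and 67 genes with a range over 20 points. Among the named genes with the widest ranges or offsets, 3 of 19 with a sequence had a match. These are shown from 50 bases before the start up to it, with the match in capitals. Myh3 lies at chr11:67078250-67078299 (plus strand), Kap at chr6:133853668-133853717 (minus) and G6pc at chr11:101367666-101367715 (plus), from RefSeq on GRCm38.p6.
Myh3: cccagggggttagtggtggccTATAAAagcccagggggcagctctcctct
Kap: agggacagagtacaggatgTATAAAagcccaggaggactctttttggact
G6pc: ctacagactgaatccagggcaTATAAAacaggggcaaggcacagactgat
These 3 genes belong to different arrangements, Myh3 being high in replicate 4 and Kap and G6pc in replicate 1.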

How the data were processed

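RNA was labelled with biotin and hybridised to 1 Affymetrix 3' expression array for each sample, per the labels' protocols. The deposited values are RMA intensities by the authors, as the submitters' processing notes state. They are on a linear scale and were normalized apart for the R2E17 and NB-titled arrays and for the E17R2 arrays, as the distributions show. The sources used here do not give scanner settings or an RMA version. The number of arrays limits the precision.

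Of 45101 probe sets, 64 controls were set aside, 34945 had 1 gene symbol in the supplied platform annotation, 932 had several and 9160 are not named here. Symbols were updated through a RefSeq table of GRCm38.p6, which held 34741 of them. Each of 18193 genes was represented by its brightest probe set (mean log2 intensity, 11 arrays), for 1580 genes one whose suffix marks possible cross-hybridisation. Genes were ranked within each array with Python 3.11.15 and pandas 2.3.3, as 100 times the rank over the number of genes. No test between groups was made, because there was 1 condition, and Dixon's criterion was used only to find single arrays far from the others. Ranking and the recovery of planted variable genes were tested on simulated data.

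Of the 31 gene lists and the 3 families defined by symbol pattern, 445 different list genes were measured. The members and the lists were chosen with earlier results of these data known. Genes were named as compartment markers, list members, the 25 brightest, the 15 widest ranges over the E17R2 arrays, the 10 highest and 10 lowest differences of the R2E17 array from their mean, and the 10 most like Hsd3b1. RefSeq promoters, the first listed start of each gene, matched 14452 genes, of which 2661 have several starts. The alternatives were another probe set choice, another ranked population, other thresholds and leaving out each array. An alternative that averaged replicates 2 and 3 was chosen after seeing the data.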

Additional observations from a re-analysis of the deposited data

Results flagged for a closer look

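Of 44 results examined for a single array far from the other three (31 lists, 3 families, 7 genes and 3 array measures), 5 stood apart by Dixon's criterion, which chance passes in about 1 of 20 groups. The cell cycle list had a median percentile of 87.6 in replicate 1, with the nearest array at 93.6, and the imprinted and fetal growth list one of 88.3, with the nearest at 94.5. Replicate 4 stood apart in the liver list, at 89.3 with the nearest array at 47.3, and in the sex-linked list, at 34.9997 with the nearest at 9.02. It was also the lowest array for housekeeping genes, at 97.8 with the nearest at 98.4.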

How the results depend on the processing

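The stroma list had the highest median of the 12 kidney lists under every alternative, and intercalated cells the lowest except with the median of a gene's probe sets, where the ureteric bud tip was lowest. Pericytes and renin cells were second under most alternatives. Endothelium was second with the median of a gene's probe sets. Without probe sets of possible cross-hybridisation, the renal vesicle to S-shaped body was second.

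With the median of a gene's probe sets the medians were 67.1 for nephron progenitors, 67.8 for podocytes, 73.7 for proximal tubule, 59.4 for loop of Henle and 55.6 for distal tubule. They were 52.9 for bud tip, 79.4 for trunk and principal cells, 89.6 for stroma and 84.2 for endothelium, and 14 of the 25 brightest genes were shared. The list of the renal vesicle to S-shaped body was then at 72.3. Without probe sets of possible cross-hybridisation, loop of Henle was at 49.5, bud tip at 63.6, stroma at 93.4, renal vesicle to S-shaped body at 83.0 and pericytes at 73.2.

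Ranked among all probe sets, the lists were at 76.4 (progenitors), 83.1 (podocytes), 82.1 (proximal tubule), 71.5 (loop), 79.3 (distal), 76.8 (bud tip), 84.1 (trunk), 95.2 (stroma) and 85.5 (endothelium). Without genes below the olfactory reference they were at 45.5 (progenitors), 59.0 (podocytes), 65.7 (proximal tubule), 45.1 (loop), 50.5 (distal), 49.2 (bud tip), 63.9 (trunk), 88.9 (stroma) and 65.7 (endothelium). Proximal tubule then stood above podocytes and the trunk and level with endothelium.

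The count of genes with a range over 20 points ran from 156 (without replicate 1) to 347 (without replicate 3) with 1 array left out and was 213 without replicate 4. It was 2722 at 10 points and 129 at 30. Averaging replicates 2 and 3, chosen after seeing the data, moved no kidney list by more than its SD. No paired analysis was possible because a single condition was described. Dim genes limit the order: below the reference a percentile does not separate a low transcript from background signal.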

Other observations

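The gonad list had medians of 13.8, 22.4, 29.5 and 20.8 in replicates 1 to 4, and 3 germ cell genes of it were singled out after their values were seen. Dazl, an RNA-binding protein of germ cells, was at 4.46, 19.9, 32.1 and 13.2, Sycp3, a protein of the meiotic chromosome axis, at 12.3, 11.3, 27.3 and 13.6, and Mael, which acts in piRNA defence, at 0.852, 0.011, 12.4 and 0.0824. Mael was below the olfactory reference on every array, and Dazl and Sycp3 were each above it on 1 array. Sycp3 was so only barely, because the reference of replicate 3 was itself at 27.3. Inha, a subunit of the hormone inhibin, was higher in replicates 2 and 3, at 59.0 and 57.7, than in replicates 1 and 4, at 46.3 and 44.4.

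Among hypoxia response genes, Ankrd37 was at 39.3 in replicate 1 and at 62.9, 66.8 and 63.2 in the others, while Ldha, which makes lactate, was at 97.9 to 98.8 on all 4 arrays. Of the fetal genes, Igf2r, the receptor that clears Igf2, was at 85.3 in replicate 1 and at 94.6, 94.7 and 95.8 in the others, and the RNA-binding protein gene Igf2bp1 was at 64.3 against 78.3, 79.2 and 76.1. Kdm6a, an X-linked gene named after its values were seen, was at 77.4, 73.8, 69.6 and 51.1, the same direction as Xist.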
